A study of Drosophila melanogaster with 4 samples.

Results

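The genes described here are those that start and carry out apoptosis in *Drosophila*: the inducers *rpr*, *grim*, *hid* and *skl*, the inhibitor *Diap1*, the initiator caspases *Dronc* and *Dredd*, the adaptor *Dark* and the effector caspases *Drice* and *Dcp-1*. They were taken by name and not by a cut on measured values, though earlier results of these data were known when they were chosen. Of the 10 genes, 6 had a probe that names a single gene (*grim*, *skl*, *Dronc*, *Dredd*, *Dark* and *Dcp-1*), with 7 probes between them, out of 11907 genes on the arrays. *rpr*, *hid*, *Diap1* and *Drice* were not analysed here. On each of 4 arrays, RNA of *poly* mutant larvae was compared with RNA of wild-type larvae, from whole animals taken early in the third instar. The mutant carried the allele named in the stock poly05137/TM6B, a P-element insertion into the only intron of *poly*. The wild-type was Canton S, which the labels also give as the genetic background of the mutant. TM6B is a balancer chromosome, and neither the labels nor the methods of the array experiment say if the larvae were homozygous. The dyes were swapped between arrays, with *poly* in Cy5 on replicates 1 and 2, and with *poly* in Cy3 on replicates 3 and 4. Each value is a log2 ratio of *poly* over wild-type within 1 array, so a value above 0 means more transcript in *poly*, and the level in either genotype is not known.

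In *Drosophila*, cells commit to apoptosis when caspases escape their inhibitors. *Diap1* encodes a ubiquitin ligase that binds the initiator caspase Dronc and the effector caspases and keeps them inactive. The inducers encode small proteins that bind Diap1 through a short motif at their amino terminus and release the caspases. Dronc is then activated on the Dark apoptosome, and it cleaves the effectors Drice and Dcp-1, which dismantle the cell. The inducers are controlled mainly through their transcription, whereas caspases are made as inactive precursors, so that a transcript level of a caspase does not measure its activity. The study stained neuroblasts and imaginal discs for dying cells. It reported that apoptosis in neuroblasts rose as *poly* larvae aged, and that cleaved caspase was raised in *poly* clones of discs. The arrays were read here for 6 of the 10 genes, in whole larvae early in the third instar. They differ from the stainings in measure and tissue, and do not cover the older larvae.

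The *poly* transcript, listed under its current symbol *Elp6*, had log2 ratios of −1.49, −1.57, −1.69 and −1.79 on replicates 1 to 4 (adjusted p = 0.0109, limma). Its call was lost without replicate 1, 2 or 4 (adjusted p between 0.0972 and 0.117), as was every other call on the arrays. The mean of *Elp6* stayed between −1.68 and −1.58 in these fits. Over replicates 1 to 4 it was −1.63, or 0.322-fold of wild-type. The paper reported that *poly* mRNA was absent with this insertion, by Northern blot and, in homozygous larvae, by RT-PCR. Why the array ratio of *Elp6* was not lower was not tested, nor whether the same holds for ratios of other genes. Replicate 3 had the widest spread, with a median absolute deviation of 0.350 against 0.200 to 0.257 on the others. Its median over all probes was 0.146, where the others lay between −0.037 and 0.007. *Sgs5*, a glue gene of the salivary gland that is expressed late in larval life, had a log2 ratio of 5.55 there against −0.09, 0.27 and −0.21 on replicates 1, 2 and 4.

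None of the 6 measured genes passed the test in either direction, at an adjusted p under 0.05 from limma with adjustment over all probes. Over the arrays, 1.25% of all genes passed as lower and 1.42% as higher. At an unadjusted p under 0.05 the members' count was 1, *Dcp-1*, against 17.0% of all genes. The mean log2 ratios of the 6 genes ran from 0.003 for *Dark*, as the mean of its probes, to 0.60 for *Dcp-1*. Their median was 0.17, and that of all named genes was 0.04. On all 4 arrays *skl*, *Dronc* and *Dcp-1* were above 0, which makes 3 of 6 members. Of all genes, 15.3% had a probe like this. On replicate 3, where the median over all probes was 0.146, *Dronc* (0.02) and *Dcp-1* (0.12) were above 0 but below that median. The smallest log2 ratios that passed on these arrays were −0.66 and 0.65, larger in size than that of any member. A change in transcript of a smaller size was therefore not called here for any gene. In RNA of whole larvae, fewer cells of a type and less RNA per cell cannot be told apart.

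**Figure D1:**
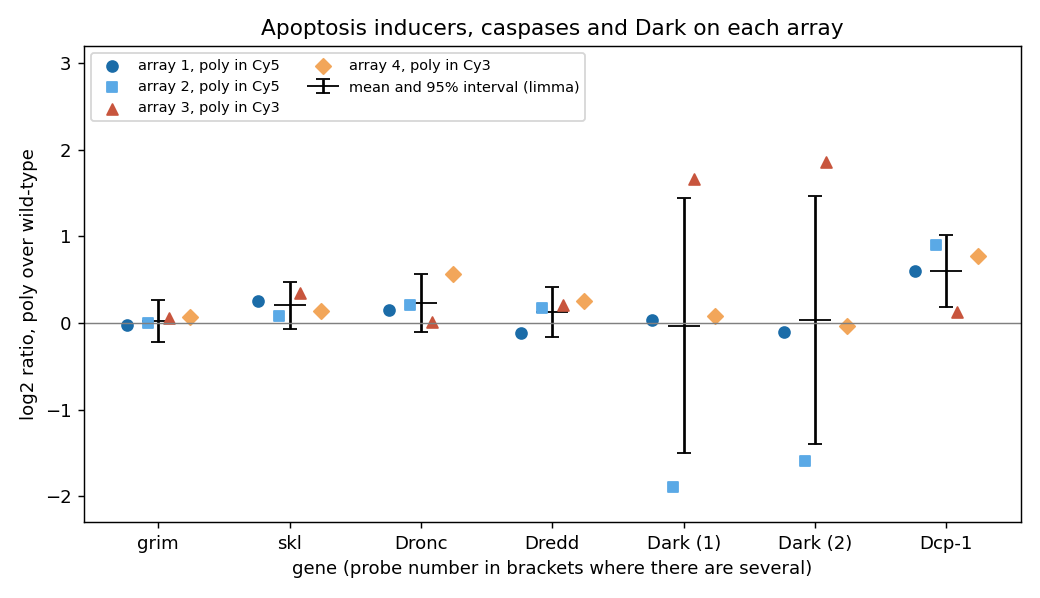
Log2 ratio of *poly* over wild-type (vertical axis) for each probe of the 6 measured genes (horizontal axis). Points are the 4 arrays, marked by replicate and by the dye of the *poly* RNA, and bars are the mean with its 95% interval from limma. The points of *grim* lie between −0.02 and 0.07, those of *Dcp-1* between 0.12 and 0.90, and both probes of *Dark* are far below 0 on replicate 2 and far above 0 on replicate 3.

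The inducers *grim* and *skl* showed small ratios. *grim* had log2 ratios of −0.018, −0.003, 0.055 and 0.069 on replicates 1 to 4. They lie on both sides of 0, and only 0.480% of all probes varied as little or less between arrays. The mean was 0.03 ± 0.04 (SD, n = 4 arrays, adjusted p = 0.951, limma), with a 95% interval of −0.22 to 0.27, or 0.860-fold to 1.21-fold. *skl* (sickle), whose product shares the Diap1-binding motif, had log2 ratios of 0.26, 0.08, 0.35 and 0.14 on replicates 1 to 4. It was slightly above 0 on each array. Its mean was 0.21 ± 0.12 (adjusted p = 0.452), with a 95% interval of −0.06 to 0.47, or 0.957-fold to 1.39-fold. The intervals are for single probes and are not adjusted over the genes tested, and both of these leave out a log2 ratio of 1 in either direction. A probe that stays near 0 on each array would also be seen for a transcript too scarce to give signal over background, which could not be looked at, since the values hold no intensity.

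The 4 inducers lie near each other on chromosome arm 3L. In the RefSeq order of protein-coding genes, *hid* is followed by CG7320, *CheA75a*, CG5103 and CG13700, then by *grim*, *rpr* and *skl*. Of these 8 genes 6 had a probe, *grim* and *skl* among them, and none passed the test. The log2 ratio was 0.01 for CG7320, 0.23 for *CheA75a*, 0.15 for CG5103 and 0.08 for CG13700 (means of 4 arrays, adjusted p between 0.527 and 0.989 from limma). CG5103, a transketolase, reached 0.78 on replicate 3 and lay between −0.20 and 0.17 on the others. Of the 3 nearest genes with a probe on either side, CG32198, the third after *skl*, passed the test, with ratios of −3.30, −3.25, −3.63 and −3.34 on replicates 1 to 4 (mean −3.38 ± 0.17, adjusted p = 0.00863). Its call was lost without replicate 1, 2 or 4 (adjusted p between 0.0588 and 0.113), as was every other call on the arrays. The ratios of *skl* and *grim* were thus far from that of CG32198 on each array.

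The initiator caspases *Dronc* and *Dredd* were also not called. *Dronc* encodes the caspase that most developmental apoptosis in the fly needs. Its log2 ratios were 0.15, 0.21, 0.02 and 0.56 on replicates 1 to 4. The value on replicate 4 was the highest, and that on replicate 3 lay below the median of its own array. The mean was 0.24 ± 0.23 (SD, n = 4 arrays, adjusted p = 0.497, limma), with a 95% interval of −0.10 to 0.57, or 0.934-fold to 1.48-fold. *Dredd* encodes the caspase of the Imd immune pathway, which cleaves the transcription factor Relish. Its log2 ratios were −0.12, 0.17, 0.21 and 0.25 on replicates 1 to 4. It was below 0 on replicate 1 and above 0 on the other arrays. The mean was 0.13 ± 0.17 (adjusted p = 0.696), with a 95% interval of −0.16 to 0.42, or 0.893-fold to 1.34-fold. *Fadd*, the adaptor that brings Dredd to the Imd complex, had ratios of 0.07, −0.23, −0.01 and −0.08, a mean of −0.06 ± 0.13 (adjusted p = 0.864). The intervals of *Dronc*, *Dredd* and *Fadd* also leave out a log2 ratio of 1 in either direction. They hold for the array ratio, and signal over background could not be looked at for these genes either.

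*Dark*, the fly relative of Apaf-1, gave opposite values on different arrays, and both of its probes did so. The first probe had log2 ratios of 0.04, −1.89, 1.66 and 0.08 on replicates 1 to 4, and the second had −0.10, −1.59, 1.86 and −0.03. The ratio was thus far below 0 on replicate 2, far above 0 on replicate 3 and near 0 on replicates 1 and 4. The means were −0.03 ± 1.45 and 0.04 ± 1.41 (SD, n = 4 arrays, adjusted p = 0.992 and 0.989, limma). Their 95% intervals, 0.353-fold to 2.72-fold and 0.379-fold to 2.77-fold, leave a change of several sizes possible in either direction. The first probe varied more between arrays than about 95.4% of all probes. Without replicate 2 the means were 0.59 and 0.58, and without replicate 3 they were −0.59 and −0.57, none of which passed (adjusted p between 0.464 and 0.701). *Dark* shared this pattern with many genes. A ratio below −1 on replicate 2 together with one above 1 on replicate 3 was seen for 689 of 11907 genes, and the opposite pair of values for 2. RNA of *poly* carried Cy5 on replicate 2 and Cy3 on replicate 3. Written as Cy5 over Cy3, the log2 ratios of the first probe were −1.89 on replicate 2 and −1.66 on replicate 3, so the Cy5 signal was the lower one on both, while on replicates 1 and 4 they were 0.04 and −0.08. Whether dye or the larvae of these replicates gave the pattern was not tested.

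**Figure D2:**
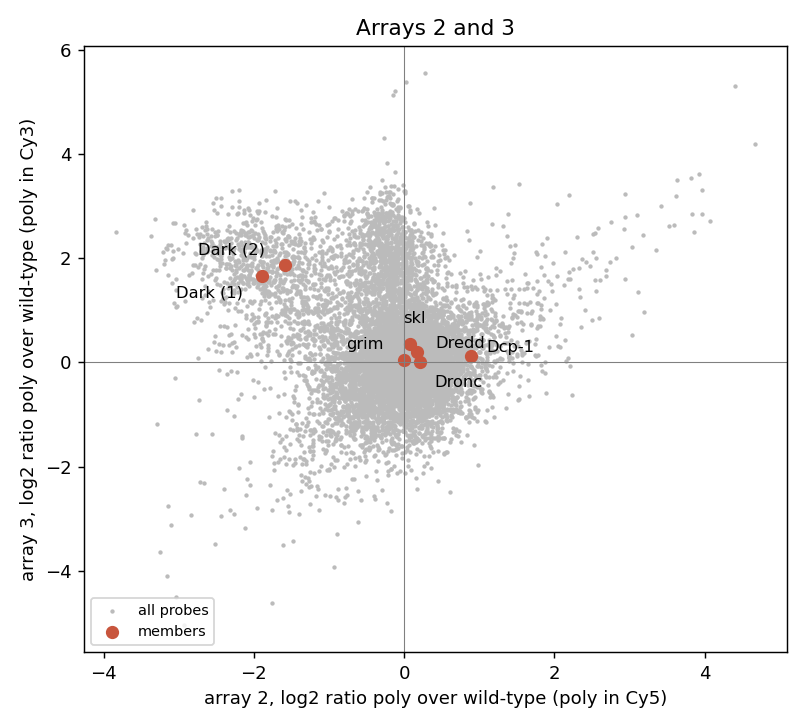
Log2 ratio of *poly* over wild-type on replicate 2 (array 2, horizontal axis, *poly* in Cy5) against replicate 3 (array 3, vertical axis, *poly* in Cy3). Grey points are all 14569 probes and red points the 7 probes of the measured genes. Both probes of *Dark* lie in the group at the upper left, which holds 689 named genes below −1 on replicate 2 and above 1 on replicate 3. The other members lie nearer the centre, with *Dcp-1* to the right of it (0.90 on replicate 2 and 0.12 on replicate 3).

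*Dcp-1*, an effector caspase that also acts in starvation-induced autophagy of the ovary, had the largest ratio of the measured genes. Its log2 ratios were 0.60, 0.90, 0.12 and 0.78 on replicates 1 to 4. On replicates 1, 2 and 4 it was higher than at least 93.5% of probes of the array, and on replicate 3 it was at the 47.8th percentile, just below the median. Both dye orientations gave a positive mean, 0.75 with *poly* in Cy5 and 0.45 with *poly* in Cy3. The mean over the arrays was 0.60 ± 0.34 (SD, n = 4 arrays), or 1.52-fold with a 95% interval of 1.14-fold to 2.02-fold. This did not pass over all probes (adjusted p = 0.161, limma), where *Dcp-1* ranked 1265 of 14569 by p. Without replicate 3 the mean was 0.76 (adjusted p = 0.062). Only a fit with array weights called it, at 0.73 (adjusted p = 0.0237), and that fit gave replicates 1 and 2, which share a dye orientation, weights of 2.10 and 2.44 against 0.289 and 0.675 for replicates 3 and 4. The genes with the most similar ratios, by the root mean square difference over the 4 arrays, were CG10916 (0.097), *Coq6* (0.108) and *Ptp52F* (0.110). Their mean log2 ratios were 0.68, 0.53 and 0.57, and none of them passed (adjusted p = 0.104, 0.202 and 0.119), although with array weights all 3 did (adjusted p = 0.0191, 0.0324 and 0.0257).

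A wider list of cell death genes gave the same count. Of 44 listed genes 34 had a probe, and none passed the test in either direction, against 1.25% of all genes lower and 1.42% higher. At an unadjusted p under 0.05, 4 of the 34 would count (*Damm*, *AIF*, *drpr* and *puc*), again against 17.0% of all genes. Their median log2 ratio was 0.06, beside 0.04 for all named genes, with 18 of 34 above 0. The medians on replicates 1 to 4 were −0.07, −0.13, 0.27 and 0.05. Without replicate 3 the median was −0.07, and 20 of the 34 were below 0.

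Among the other caspases, *Damm*, which resembles the effector caspases, had the larger ratios. They were 0.44, 1.19, 0.68 and 0.62 on replicates 1 to 4, all above 0. The mean was 0.73 ± 0.32 (SD, n = 4 arrays, adjusted p = 0.0991, limma). *Strica*, a caspase with a long amino-terminal stretch in place of a known prodomain, had a mean of 0.18 ± 0.14 (adjusted p = 0.524). Among 4 genes of the inhibitor of apoptosis (IAP) proteins and their regulators, means ran from −0.16 to 0.39. *HtrA2*, a mitochondrial protease that can cleave Diap1, had 0.15 ± 0.17 (adjusted p = 0.647), and 0.09 without replicate 3. *Diap2*, the IAP that also serves in Imd signalling, had ratios of 0.47 and 0.54 on replicates 1 and 2 and −0.18 and −0.24 on replicates 3 and 4, so that its sign followed the dye orientation. The Bcl-2 relatives *Debcl* and *Buffy* had means of −0.51 ± 1.53 and −0.08 ± 0.15. *Debcl* was at −2.71 on replicate 2 and between −0.21 and 0.82 on the others.

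Of 5 measured genes for the execution of cell death, *AIF*, a mitochondrial flavoprotein, was below 0 on each array. Its log2 ratios were −0.32, −0.54, −0.52 and −0.41 on replicates 1 to 4, and the mean of −0.45 ± 0.10 did not pass (adjusted p = 0.113, limma). *EndoG*, a mitochondrial nuclease, was also below 0 on each array, with a mean of −0.39 ± 0.33 (adjusted p = 0.331). Of 6 measured genes for the engulfment of dead cells, *drpr* (Draper), the receptor by which glia and other cells take up cell corpses, had log2 ratios of 0.49, 0.89, 0.47 and 0.76. These were close to each other and above 0 throughout. The mean was 0.65 ± 0.21 and its adjusted p of 0.0775 was the lowest among the cell death genes. *ced-6*, the adaptor that acts behind Draper, had 2.31 on replicate 3 and between −0.32 and 0.06 on the others, and its mean of 0.51 therefore rests on 1 array (−0.09 without it).

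Of 13 measured upstream genes, *puc*, the phosphatase that is both a target and an inhibitor of JNK signalling, had the largest ratio. Its values were 0.24, 0.21, 1.63 and 1.14 on replicates 1 to 4, so that it was higher with *poly* in Cy3 (mean 1.38) than in Cy5 (mean 0.22). The mean over the arrays was 0.80 ± 0.70 (adjusted p = 0.270, limma), and it was 0.53 without replicate 3 and 0.41 with array weights, with no call in either. *p53*, which activates *rpr* and *hid* after DNA damage, had 0.37, 0.35, 0.43 and −0.10, a mean of 0.27 ± 0.25 (adjusted p = 0.447). *egr*, the fly tumour necrosis factor, and its receptor genes *wgn* and *grnd* had means of −0.16, −0.25 and −0.07, and *wgn* varied as *Dark* did, with −1.85 on replicate 2 and 1.32 on replicate 3. *foxo*, the transcription factor that insulin signalling holds out of the nucleus, had −0.84, −0.68, −0.08 and −0.16, a mean of −0.44 ± 0.37 (adjusted p = 0.316).

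**Figure D3:**
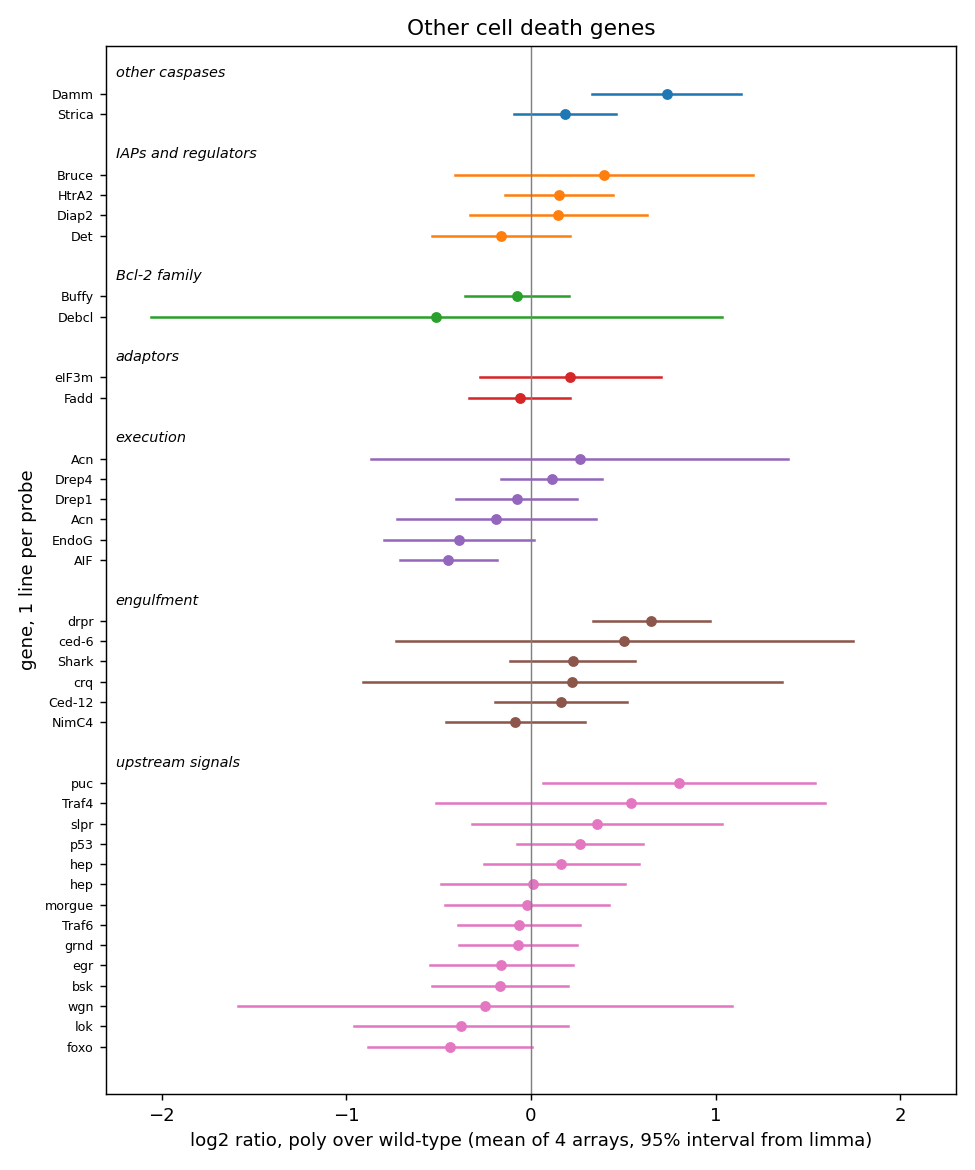
Mean log2 ratio of *poly* over wild-type (horizontal axis) with its 95% interval from limma for each probe of the 34 other measured cell death genes (vertical axis), grouped and coloured by role. The intervals of *Damm*, *drpr* and *puc* lie above 0 and that of *AIF* below 0, but no gene passed after adjustment over all probes.

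The tissues in which these genes act were followed through lists of marker genes. Of 9 measured imaginal disc markers none passed, and their median log2 ratio was 0.18. This median rests on replicate 3: the medians on replicates 1 to 4 were −0.19, −0.12, 0.11 and −0.15, and without replicate 3 the median was −0.19, with 7 of 9 below 0. The one with the smallest p, *so*, an eye disc regulator, had −0.37 ± 0.08 (SD, n = 4 arrays, adjusted p = 0.155, limma). Of 7 neural markers none passed, with a median of −0.01 (−0.12 without replicate 3), and *nSyb*, a synaptic vesicle protein, had −0.42 ± 0.31 for the probe with the smallest p (adjusted p = 0.276). Of 7 haemocyte markers *NimC1*, a phagocytosis receptor, passed, with 1.87, 2.02, 1.13 and 0.97 on replicates 1 to 4 (a 2.82-fold higher mean level, adjusted p = 0.0492). Its call was lost when any of the replicates was left out (adjusted p between 0.0567 and 0.245). Without replicate 1, 2 or 4 no gene on the arrays was called. The call of *NimC1* was also lost with median centring (adjusted p = 0.0684), scaled arrays (0.101) and a robust prior (0.0535). With a minimum log2 ratio of 0.5 it was lost too (adjusted p = 0.225). The median of the haemocyte markers was −0.09, so the list did not move with *NimC1*. Of 5 fat body markers *Lsd-1*, a perilipin, was lower (−1.24 ± 0.31, adjusted p = 0.0332). Its call was lost with a dye term (adjusted p = 0.0652) and with a minimum log2 ratio of 0.5 (adjusted p = 0.168). Like every call on the arrays, it was also lost without replicate 1, 2 or 4 (adjusted p between 0.116 and 0.203). The list did not move with *Lsd-1*: its median was 0.64, the medians on replicates 1 to 4 were −1.31, 0.04, 3.19 and 0.13, and without replicate 3 the median was −0.28. *Fbp2*, a fat body protein, had −0.13, 3.62, 3.19 and 3.43. It was high on all arrays but replicate 1, and the mean, 2.52 ± 1.78, was not called (adjusted p = 0.169). Of 5 salivary gland markers none passed, and their medians were −0.09, −0.15, 3.26 and 0.08 on replicates 1 to 4. On replicate 3 the glue genes *Sgs1*, *Sgs4* and *Sgs5* had 3.26, 5.13 and 5.55, whereas *ng1* and *ng2*, also genes of the salivary gland, had −0.48 and −1.09. Of 7 midgut markers none passed, 5 were above 0 on all 4 arrays, and the medians were 0.38, 1.15, 0.32 and 1.16. *Mal-A1*, a maltase, had 1.69 ± 0.71 (adjusted p = 0.0653), and it passed with a dye term (adjusted p = 0.0298) and with array weights (adjusted p = 0.00897). The midgut medians, like the ratios of *Dcp-1*, were lowest on replicate 3. The midgut medians of replicates 3 and 1 were close (0.32 and 0.38), whereas *Dcp-1* had 0.12 and 0.60 there. The part of gut tissue in the ratios of *Dcp-1* was not tested. The high values of these 3 *Sgs* genes on replicate 3 came with a ratio of *Dark* of 1.66 and 1.86 there. On replicate 2, where *Dark* had −1.89 and −1.59, *Sgs1*, *Sgs4* and *Sgs5* had −0.20, −0.15 and 0.27. The part of salivary gland tissue in the ratios of *Dark* was not tested either.

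**Figure D4:**
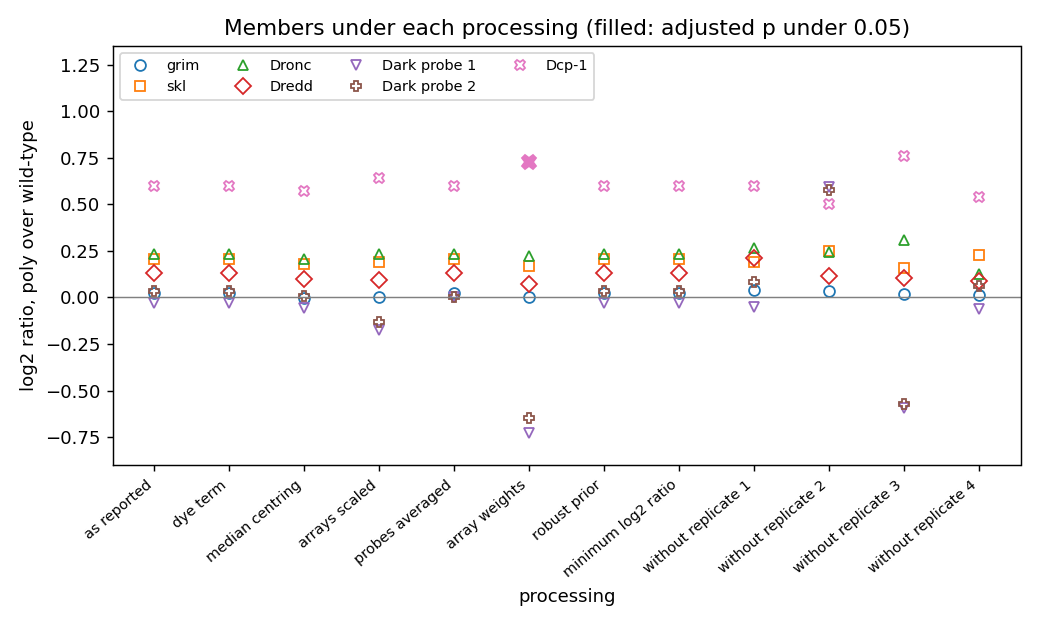
Log2 ratio of *poly* over wild-type (vertical axis) for each probe of the measured genes, as reported and under each alternative processing (horizontal axis). Filled points have an adjusted p under 0.05, which is the case only for *Dcp-1* with array weights. *Dcp-1* stayed between 0.50 and 0.76, and both probes of *Dark* changed sign with the replicate left out.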

How the data were processed

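The authors quantified spots of long-oligonucleotide arrays with Dapple, normalized them with vsn and deposited a log2 ratio per array for 14569 probes. Each column was read as *poly* over wild-type without a turn of sign, since *poly* itself was below 0 in all. No source used here gives the background correction or spot filters. There were no intensities, so precision is set by the 4 arrays. Gene symbols came from the GEO annotation of the platform and were updated to RefSeq (assembly GCF_000001215.4), and 12657 probes had 1 symbol.

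Each probe was tested against 0 with limma over the 4 arrays, which the labels name as biological replicates (two-sided, Benjamini–Hochberg over all probes, threshold 0.05), after a check on simulated data. List medians use the mean of a gene's probes. Named genes are the members and, per role or tissue, those that passed or had the smallest p, plus neighbours of the inducers. *Strica*, *Diap2*, *EndoG*, *ced-6*, *p53*, *egr*, *wgn*, *grnd*, *foxo*, *Buffy*, *Fbp2*, *Sgs1*, *Sgs4*, *ng1* and *ng2* were added after their values were seen. Members and lists were chosen with earlier results of these data known. Alternatives were a dye term, centring, scaling, averaged probes, weights per array, a minimum log2 ratio of 0.5, a robust prior and each replicate left out. R 4.3.3, limma 3.58.1, Python 3.11.15 and pandas 2.3.3 were used.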

Additional observations from a re-analysis of the deposited data

Results flagged for a closer look

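Of 45 probes of named genes, 7 had a replicate far from the others for its group of 4 arrays, by the 95% critical value of Dixon's test. Chance gives such a gap in about 5% of groups, and some of these genes were named after their values were seen, in part for such a value. On replicate 3 the salivary gland glue genes *Sgs1*, *Sgs4* and *Sgs5* had log2 ratios of 3.26, 5.13 and 5.55, and the gap to the next value made up 0.983, 0.957 and 0.915 of the whole range. *ced-6*, the engulfment adaptor, had 2.31 on replicate 3 (0.853 of the range). The other values were −0.13 for *Fbp2* on replicate 1 (0.886), 1.04 for *ng1* on replicate 4 (0.906) and −0.10 for *p53* on replicate 4 (0.851). No member was marked in this way. *Dark* was not, since it had extreme values in opposite directions on replicates 2 and 3.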

How the results depend on the processing

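Among the measured genes, only array weights changed a call: *Dcp-1* passed, so that 1 member was higher. With array weights 2 other cell death genes were lower (*AIF* and *foxo*) and 2 were higher (*Damm* and *drpr*). No other alternative called a member or another cell death gene. Over 11 alternatives *skl* lay between 0.16 and 0.25, *Dronc* between 0.13 and 0.31 and *Dredd* between 0.07 and 0.21. *grim* turned to −0.0023 with median centring. The first probe of *Dark* turned to 0.0034 with averaged probes and to 0.59 without replicate 2, its highest value with a replicate left out (lowest −0.59). The second turned to −0.13 with scaled arrays, −0.65 with array weights and −0.57 without replicate 3, its lowest value with a replicate left out (highest 0.58). With a replicate left out, *Debcl* lay between −0.96 and 0.22 (without replicate 2), *Sgs5* between −0.011, without replicate 3, and 1.91, *Sgs1* between −0.21 and 0.96, *Sgs4* between −0.052 and 1.71, *ced-6* between −0.094 and 0.78, *wgn* between −0.78 and 0.28, *ng1* between −0.43 and 0.076, *ng2* between −0.27 and 0.21, CG13700 between −0.032 and 0.29, CG5103 between −0.059 and 0.27 and CG7320 between −0.15 and 0.26. The sign also turned with array weights for CG5103 (−0.084), *Sgs1* (−0.035), *ng2* (0.11) and CG7320 (−0.016), and for CG7320 with median centring (−0.014) and scaled arrays (−0.048). Over all genes, 149 were lower and 169 higher. These counts were 65 and 96 with a dye term, 639 and 622 with array weights, and 19 and 37 with a minimum log2 ratio of 0.5. With scaled arrays 134 were lower and 83 higher. With a replicate left out, 0 to 151 were lower and 0 to 216 higher, and both counts were 0 without replicate 1, 2 or 4. Where none of 11907 genes is called, that no member is called says nothing of the members. The cause of these differences was not tested. The fit is already paired by array, since each ratio compares both genotypes within 1 array.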
